A study of Homo sapiens with 4 samples.

Results

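The CoCl2 response of Sp1-silenced cells was set against that of control cells, gene by gene, in OVSAYO, an established human line of ovarian clear cell carcinoma (CCC). The cells received either a negative control siRNA (NS-si) or pooled siRNAs directed at Sp1 (Sp1-si) in RPMI1640 medium, cultured for 40 h according to the labels (the study's text gives a shorter time), and kept for a further 4 h with 0.5 mM CoCl2 or without it. A single-colour Agilent array was run for each of the 4 conditions (NS-si and Sp1-si, both also with → CoCl2), all on 1 slide. The quantity of interest is the difference of responses, which is the log2 CoCl2 ratio in Sp1-si cells (Sp1-si → CoCl2 over Sp1-si) minus that in NS-si cells (NS-si → CoCl2 over NS-si). It is 0 where a gene responded alike in both, negative where the ratio was lower after Sp1 silencing and positive where it was higher. A difference of 1 means that the CoCl2 ratios differed 2-fold. Conditions were not replicated (1 array each), so no test was possible, precision is limited by the number of arrays, and all statements below describe these 4 arrays.

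Members are genes measured well above background on all 4 arrays by at least 1 probe, as the scanner software called it. A gene with several such probes was kept only where the differences of its probes spanned at most 1. Of 17721 genes named on the array, 14291 passed the background condition, and 13720 were members, 9314 of them through 1 probe. Among the 4977 genes with 2 or more probes, 4406 (88.5%) agreed and 571 did not. PRDM2, with a span of 0.999, was the last gene inside this limit. Each gene takes the mean over its probes. Signals below were scaled so that every array has the same 75th percentile, and ratios are taken from them. The 75th percentile before scaling lay between 977 and 1287, spots well above background numbered between 33081 and 34542, and 0 spots were saturated. The targeted gene, SP1, had scaled signals of 419 without and 392 with CoCl2 in NS-si cells, against 28.8 and 23.1 in Sp1-si cells. All 15 CCC and epithelial markers (among them PAX8, NAPSA and KRT7) were measured, and their differences lay between -0.29 for SPP1 and 0.40 for MUC16, whereas only ESR1, PGR and DCN of 9 markers of other ovarian tumour types, stroma and blood cells passed the background condition.

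Sp1 is a zinc finger transcription factor that binds GC boxes, short GC-rich elements found in many promoters. CoCl2 blocks the prolyl hydroxylases that mark hypoxia-inducible factors (HIFs) for degradation, so that HIFs accumulate in the presence of oxygen and act on hypoxia response elements (HREs). Cobalt is also a heavy metal, and metal ions, oxidants and misfolded proteins have transcription factors of their own, namely MTF1, NRF2 and HSF1, while stress kinases act on the AP-1 factors of the JUN and FOS families.

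Promoters of genes at either end of the difference are shown first, because these motifs are the known binding elements of the factors just named. They are the 250 bases before the transcription start in RefSeq (build GRCh38.p14), written along the strand of the gene. JUN had the most negative difference among genes that CoCl2 raised 2-fold or more in NS-si cells and that had 2 or more probes or a probe with 10 spots. CD69 and SLC16A6, next in order, had no entry in the promoter table, and TNNT2 and ICAM5 were the next genes with one. In the following 3, capitals mark the GC box GGGCGG on either strand, of which JUN holds 2, TNNT2 0 and ICAM5 2. GC boxes are not particular to these genes. The promoters of MT1X, MT2A and HSPA6 further below, genes with positive differences, hold 2, 2 and 3, which are not marked there.
JUN, chr1:58784048-58784297, minus strand: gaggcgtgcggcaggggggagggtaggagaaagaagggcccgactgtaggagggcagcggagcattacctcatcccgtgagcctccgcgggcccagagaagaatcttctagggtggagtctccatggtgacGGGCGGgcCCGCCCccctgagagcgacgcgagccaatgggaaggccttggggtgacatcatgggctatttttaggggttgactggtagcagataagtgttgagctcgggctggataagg
TNNT2, chr1:201377681-201377930, minus strand: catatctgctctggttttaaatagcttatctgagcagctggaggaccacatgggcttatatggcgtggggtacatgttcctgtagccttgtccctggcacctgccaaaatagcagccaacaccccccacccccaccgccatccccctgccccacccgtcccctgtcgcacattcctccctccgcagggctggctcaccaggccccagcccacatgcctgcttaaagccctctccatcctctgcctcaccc
ICAM5, chr19:10289702-10289951, plus strand: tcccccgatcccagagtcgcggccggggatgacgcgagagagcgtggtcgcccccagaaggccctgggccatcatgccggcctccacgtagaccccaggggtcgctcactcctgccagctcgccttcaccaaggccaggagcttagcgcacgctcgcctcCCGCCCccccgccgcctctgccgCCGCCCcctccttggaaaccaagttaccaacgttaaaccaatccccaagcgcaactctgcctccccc
The next 2, chosen after the values were seen, belong to metallothionein genes with strongly positive differences, and capitals mark the core of the metal response element, TGCACNC or TGCGCNC, on either strand. MT1X holds 4 matches and MT2A 7.
MT1X, chr16:56682220-56682469, plus strand: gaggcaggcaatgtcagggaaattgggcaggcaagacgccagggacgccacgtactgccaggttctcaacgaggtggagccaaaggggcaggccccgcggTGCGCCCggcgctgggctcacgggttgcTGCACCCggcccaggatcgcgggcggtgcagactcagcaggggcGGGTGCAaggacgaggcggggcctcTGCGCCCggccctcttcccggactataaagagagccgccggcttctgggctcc
MT2A, chr16:56608334-56608583, plus strand: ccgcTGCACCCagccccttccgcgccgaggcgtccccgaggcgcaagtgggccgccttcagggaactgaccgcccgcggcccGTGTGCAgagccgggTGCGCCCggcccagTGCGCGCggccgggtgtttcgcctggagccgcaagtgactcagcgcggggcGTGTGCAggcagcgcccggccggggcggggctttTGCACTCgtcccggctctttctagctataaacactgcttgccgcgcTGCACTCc
The last, also chosen after the values were seen, is that of HSPA6, where capitals mark 2 matches to GAANNTTC, a core of the heat shock element. The promoter of JUN above holds 1 match to this core, which is not marked there.
HSPA6, chr1:161524290-161524539, plus strand: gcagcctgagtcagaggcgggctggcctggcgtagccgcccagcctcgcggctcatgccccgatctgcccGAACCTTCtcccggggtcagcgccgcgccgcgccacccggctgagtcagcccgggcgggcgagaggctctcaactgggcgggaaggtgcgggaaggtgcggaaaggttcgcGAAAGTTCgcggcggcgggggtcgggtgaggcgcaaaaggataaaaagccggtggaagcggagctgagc
A match is a run of letters and was not shown here to be bound.

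Most genes, 12457 of 13720, had CoCl2 ratios under 2-fold in both kinds of cells. The median difference was 0.01 with an SD over genes of 0.40, and 11468 of the 13720 genes (83.6%) lay within 0.5 of 0. Of these, 10849 were under 2-fold in both kinds of cells, so this share mostly counts genes with little response in either. The difference was -1 or lower for 257 genes (1.87%) and 1 or higher for 119 genes (0.867%), 376 in all (2.74%). The last gene inside the lower limit was H4C4 with -1.001 and the first outside was BIRC3 with -0.996, and the corresponding genes of the upper limit were C2orf72 with 1.0003 and CDON with 0.998. How these 376 genes split between lower and higher depends on how the arrays are scaled. Negative differences made up 68.4% of them as reported, 49.7% (184 lower, 186 higher) with median scaling, 51.2% (194 lower, 185 higher) with quantile normalization, 79.9% (127 lower, 32 higher) with normexp background correction, and 4.19% (36 lower, 823 higher) without any scaling, which shifted the median of all genes to 0.47.

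**Figure D1:**
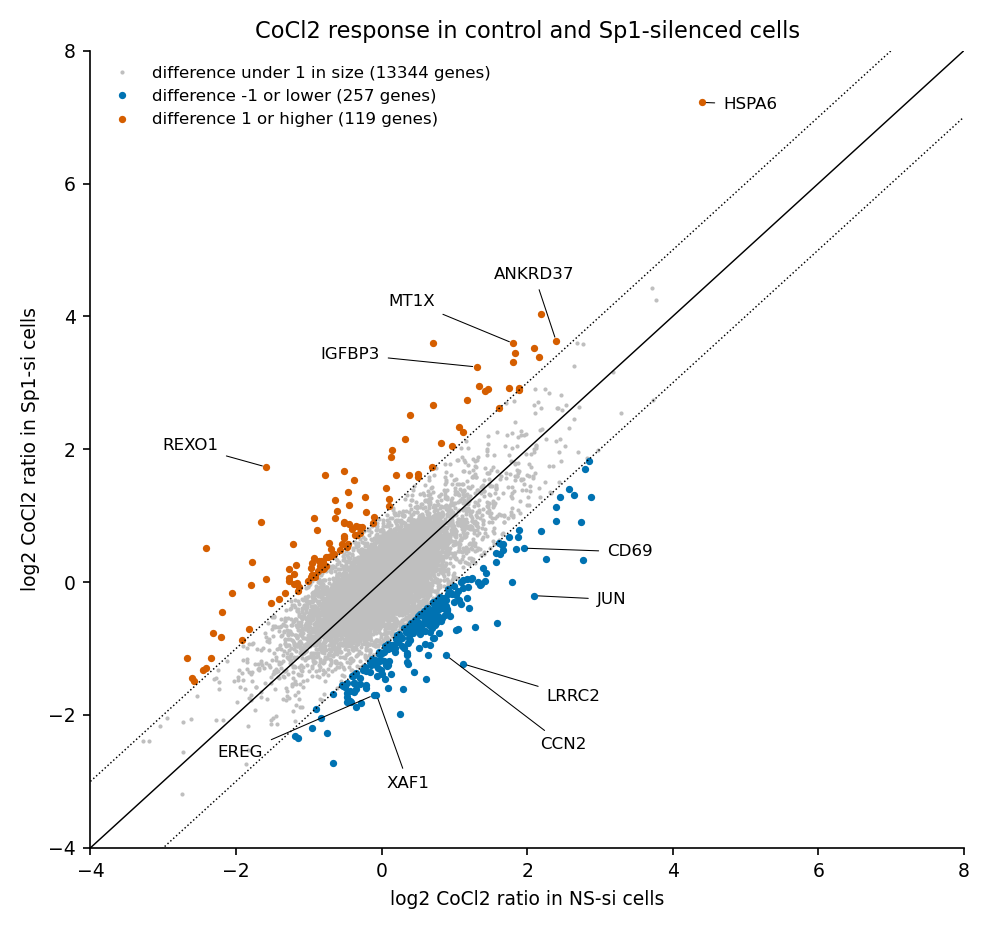
Log2 CoCl2 ratio in NS-si cells (x axis) against that in Sp1-si cells (y axis) for the 13720 member genes, 1 point per gene. The solid line marks equal ratios and the dotted lines a difference of 1, so that the 257 genes below the lower line (blue) and the 119 genes above the upper line (orange) are those with differences past 1.

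The only error these arrays offer is the spread between spots of probes that are present 10 times. For a probe with 1 spot, it corresponds to a median SD of the difference of 0.24 at signals from 9.91 to 104.8 (0.13 to 0.71 for single probes, the highest at the dimmest signals), of 0.13 from 111 to 374, and of 0.087 above 7881. This covers spotting and scanning, not differences between cultures. A second check comes from genes with several probes. Of 615 such probes with a difference past 1, 201 (32.7%) belonged to genes whose probes agreed, 144 had another probe past 1 in the same direction, and 278 had another probe of the opposite sign. The disagreement had a direction. In 331 of the 571 genes left out, the lowest probe was at -1 or lower and the highest under 1, and in 293 of them the highest lay within 0.5 of 0, whereas 39 genes had a probe at 1 or higher and none at -1 or lower. Genes with 2 or more agreeing probes had a difference of -1 or lower in 32 cases of 4406 (0.726%) and of 1 or higher in 16 (0.363%), while genes with 1 probe had 225 (2.42%) and 103 (1.11%) of 9314. The condition on agreement could remove genes only from the first kind.

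**Figure D2:**
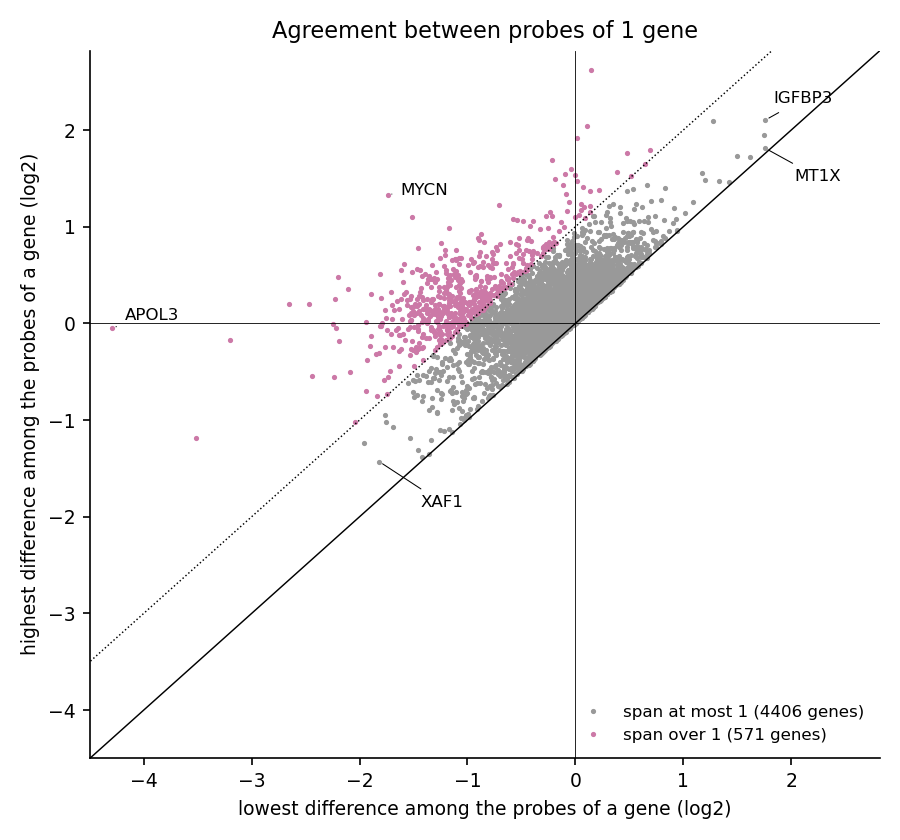
For each of the 4977 genes with several probes that passed the background condition, the lowest difference of responses among its probes (x axis) against the highest (y axis). Genes between the solid line of equal values and the dotted line, a span of 1, are the 4406 members (grey), and the 571 genes above it (pink) were left out, 293 of them with a lowest probe at -1 or lower and a highest probe within 0.5 of 0.

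A negative difference can arise in several ways. Of the 257 genes, 42 had a CoCl2 ratio of at least 2-fold in NS-si cells only, 7 in both kinds of cells, 75 were lowered at least 2-fold in Sp1-si cells only, 2 were lowered in both, LRRC2 had ratios of opposite sign, and 130 stayed under 2-fold in each. Of all members, 490 (3.57%) were raised and 394 (2.87%) lowered at least 2-fold in NS-si cells, and 451 (3.29%) were raised and 396 (2.89%) lowered in Sp1-si cells. Of the 490 genes, 50 thus had a difference of -1 or lower when LRRC2 is counted. By level, 141 of the 257 were at least 2-fold lower in Sp1-si → CoCl2 than in NS-si → CoCl2 cells, 48 instead had a level at least 2-fold above that of NS-si cells in Sp1-si cells without CoCl2, and 68 met neither condition. The 119 positive differences comprised 25 genes raised at least 2-fold in Sp1-si cells only, 19 raised in both, 25 lowered in NS-si cells only, 6 lowered in both, REXO1 with ratios of opposite sign, and 43 under 2-fold in each. Of these, 51 ended at least 2-fold higher in Sp1-si → CoCl2 cells, 31 started at least 2-fold lower in Sp1-si cells, 4 did both and 33 neither. The 288 genes raised at least 2-fold in both kinds of cells had a median difference of 0.00, and 194 of them lay within 0.5 of 0. Passing the same limit in both kinds of cells itself favours differences near 0, so this median does not measure how far responses are shared. Of the 201 genes raised in NS-si cells only, 78 lay within 0.5 of 0, and of the 162 raised in Sp1-si cells only, 61 did.

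JUN, which encodes a subunit of AP-1, was raised by CoCl2 in NS-si cells only. Its scaled signals, the mean over 10 spots of 1 probe, were 5045 without and 21568 with CoCl2 in NS-si cells, against 6390 and 5549 in Sp1-si cells. Only the NS-si → CoCl2 array was high, with a log2 CoCl2 ratio of 2.10 against -0.20 in Sp1-si cells. The difference of -2.30 had an SE between spots of 0.019, and it stayed between -2.30 and -1.85 under the 14 alternatives that gave a value. Its promoter, printed above, holds 2 GC boxes. KLF6, a zinc finger factor related to Sp1, had a difference of -0.57 over 4 probes that ranged from -1.02 to -0.19, with ratios of 1.01 (NS-si) and 0.44 (Sp1-si). ICAM1, an adhesion receptor for leukocytes, is no member, since its 10-spot probe was well above background on 0 arrays, and FGF8, a growth factor, was well above it on 1 array only.

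CCN2, a secreted matrix-associated protein, and CD69, a membrane receptor of activated lymphocytes, differed in their levels before CoCl2. CCN2 had signals of 91.2 without and 169 with CoCl2 in NS-si cells, against 317 and 148 in Sp1-si cells. The Sp1-si array was thus the highest, and the ratios of 0.89 and -1.10 led to nearly equal levels under CoCl2. The CD69 probe, with 10 spots, had 38.5 without and 149 with CoCl2 in NS-si cells, against 267 and 381 in Sp1-si cells. Both Sp1-si arrays exceeded both NS-si arrays, and its difference of -1.44 (SE 0.085 between spots) came with ratios of 1.95 (NS-si) and 0.51 (Sp1-si). MAFF, a small MAF factor, was raised in both, with ratios of 2.80 and 1.70. It started higher in Sp1-si cells, with signals of 502 without and 3490 with CoCl2 in NS-si cells, against 985 and 3207 in Sp1-si cells. The difference of MAFF, -1.09, was -0.64 without scaling, -0.99 with median scaling and -0.95 with normexp. Of 48 members of the list of immediate early and AP-1 genes, which respond within minutes to hours of a stimulus, 3 had a difference of -1 or lower (JUN, CCN2 and MAFF) and 3 of 1 or higher, against 1.87% and 0.867% of all genes. The latter were FOS, the partner of JUN, with 1.01, BTG2, an antiproliferative gene, with 1.04, and ID3, an inhibitor of basic helix-loop-helix factors, with 1.32. FOS was just under 1 (0.97) with normexp. JUN and FOS therefore differed in opposite directions, FOS having signals of 290.0 without and 891 with CoCl2 in NS-si cells, against 305 and 1884 in Sp1-si cells. ID1, ID2 and ID3 had ratios of -0.76, -0.9995 and -1.20 (NS-si) and of 0.16, -0.05 and 0.12 (Sp1-si). ID3 had signals of 2556 without and 1112 with CoCl2 in NS-si cells, against 1228 and 1337 in Sp1-si cells. The median difference of the list was -0.14, and 0.31 without scaling, where that of all genes was 0.47.

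Among members with 2 or more agreeing probes, the 10 lowest differences ran from XAF1 at -1.62 to ALCAM at -1.27. XAF1, an interferon-inducible proapoptotic gene, had signals of 41.8 without and 39.9 with CoCl2 in NS-si cells, against 150 and 46.3 in Sp1-si cells. The Sp1-si array alone was high, and the 2 probes behind these means gave -1.82 and -1.43. Another XAF1 probe, well above background on 2 arrays and so not used, gave a difference of -0.004. Its signals were 5.77 without and 2.68 with CoCl2 in NS-si cells, against 141 and 65.3 in Sp1-si cells. It was the one gene past 1 among 35 interferon-stimulated members (2.86%, against 2.74% of all genes), whose median was 0.01. EREG, a ligand of the EGF receptor, had 1511 without and 1408 with CoCl2 in NS-si cells, against 703 and 217 in Sp1-si cells, so that its ratio was -0.10 (NS-si) and -1.70 (Sp1-si). LEPROT, which regulates receptor trafficking and shares its locus with the leptin receptor, was likewise lowest in Sp1-si → CoCl2 cells. Its signals were 4490 and 3891 against 3762 and 1248 in the same order. Without CoCl2, its log2 ratio of Sp1-si over NS-si was -0.26, against -1.10 for EREG. SLC16A6, a monocarboxylate transporter family member, had 3567 without and 9146 with CoCl2 in NS-si cells, against 4947 and 4810.3 in Sp1-si cells. As for JUN, only the NS-si → CoCl2 array stood out, and both probes gave nearly the same difference, -1.42 and -1.38. TNNT2, encoding cardiac troponin T, behaved similarly with 168 and 607 against 186 and 263, and its probes gave -1.36 and -1.35. SOCS1, an inhibitor of cytokine signalling, had 179 without and 179 with CoCl2 in NS-si cells, against 839 and 322 in Sp1-si cells, and here the Sp1-si array was the highest. The remaining genes were CCDC144A (-1.36), the zinc finger gene ZBTB43 (-1.36), the nuclear receptor coactivator NCOA3 (-1.29 over 3 probes) and ALCAM, a cell adhesion receptor. Without scaling, 8 of the 10 genes, all but XAF1 and EREG, were no longer past 1 and lay between -0.95 and -0.82.

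Members with 1 probe and a mean signal of at least 50 had lower extremes. Beside JUN and CCN2, they were LRRC2 (-2.35), GARIN1B (-2.20), the chemokine receptor CCR1 (-2.06), PDP1, a phosphatase that activates pyruvate dehydrogenase (-2.05), MIPOL1 (-1.96), the endoribonuclease ENDOU (-1.91), the cytoskeletal linker MACF1 (-1.91) and NEUROG1, a neuronal transcription factor (-1.75). LRRC2, GARIN1B, CCR1 and MIPOL1 had a mean signal below 104.8, where the median SD of the difference between spots was 0.24, and normexp brought them to -1.37, -1.22, -1.33 and -1.24. PDP1 was brighter, with 760.0 without and 477 with CoCl2 in NS-si cells, against 2250.2 and 342 in Sp1-si cells, and was highest in Sp1-si cells without CoCl2. ENDOU had 210.5 without and 1007 with CoCl2 in NS-si cells, against 28.5 and 36.3 in Sp1-si cells, so that it was low on both Sp1-si arrays and raised by CoCl2 in NS-si cells alone, by 2.26 on the log2 scale.

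The genes of the metallothionein family had the most positive median of all 21 lists. Metallothioneins are small cysteine-rich proteins that bind zinc and other metals. Of 11 measured members of the list of metallothionein and zinc export genes, 6 (54.5%) had a difference of 1 or higher, against 0.867% of all genes, and 0 had -1 or lower. MT1X had signals of 1305 without and 4577 with CoCl2 in NS-si cells, against 1579 and 19074 in Sp1-si cells. MT2A had 4939 without and 21195 with CoCl2 in NS-si cells, against 5995 and 68965 in Sp1-si cells. Without CoCl2 both kinds of cells were close, and the Sp1-si → CoCl2 array was the highest for both genes. The differences were 1.78 for MT1X, 1.62 for MT1E, 1.61 for MT1H, 1.46 for MT1B, 1.44 for MT1G and 1.42 for MT2A, and in MT1X, MT1H, MT1G and MT2A 2 or 3 probes each agreed. MT1F (0.65), MT1A (0.53) and MT1M (0.46) were lower, and MT3 was left out because its probes disagreed. These genes are near-identical in sequence, so their probes may read each other's transcripts and are not separate observations. SLC30A1, which exports zinc from the cell, had ratios of 0.29 (NS-si) and 1.01 (Sp1-si), whereas SLC30A2, another zinc transporter, had 0.08 and -0.10. The median of the list was 1.42 as reported and between 1.07 and 1.88 under the other scalings and normexp.

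HSPA6, an inducible HSP70 chaperone, had the largest CoCl2 ratios of all members in both kinds of cells. Its signals were 34.3 without and 727 with CoCl2 in NS-si cells, against 42.4 and 6324 in Sp1-si cells. The ratios of 4.41 and 7.22 differed by 2.82, against a median SD between spots of 0.13 for probes of like mean signal over the 4 arrays. Its signals without CoCl2 lay in the dimmest range, where that median SD was 0.24. It was the only one of 25 heat shock members past 1, and the median of the list was 0.08. HSPA1L (0.92), HSPB1 (0.91) and HSPA1A (0.84), other heat shock proteins, came next, whereas DNAJB1 (0.26), BAG3 (0.29) and HSPH1 (0.08), co-chaperones or chaperones that CoCl2 raised at least 2-fold in both, differed less. ZFAND2A, an arsenite-inducible gene that is in none of the lists and was picked after its value was seen, had ratios of 1.89 and 2.92.

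**Figure D3:**
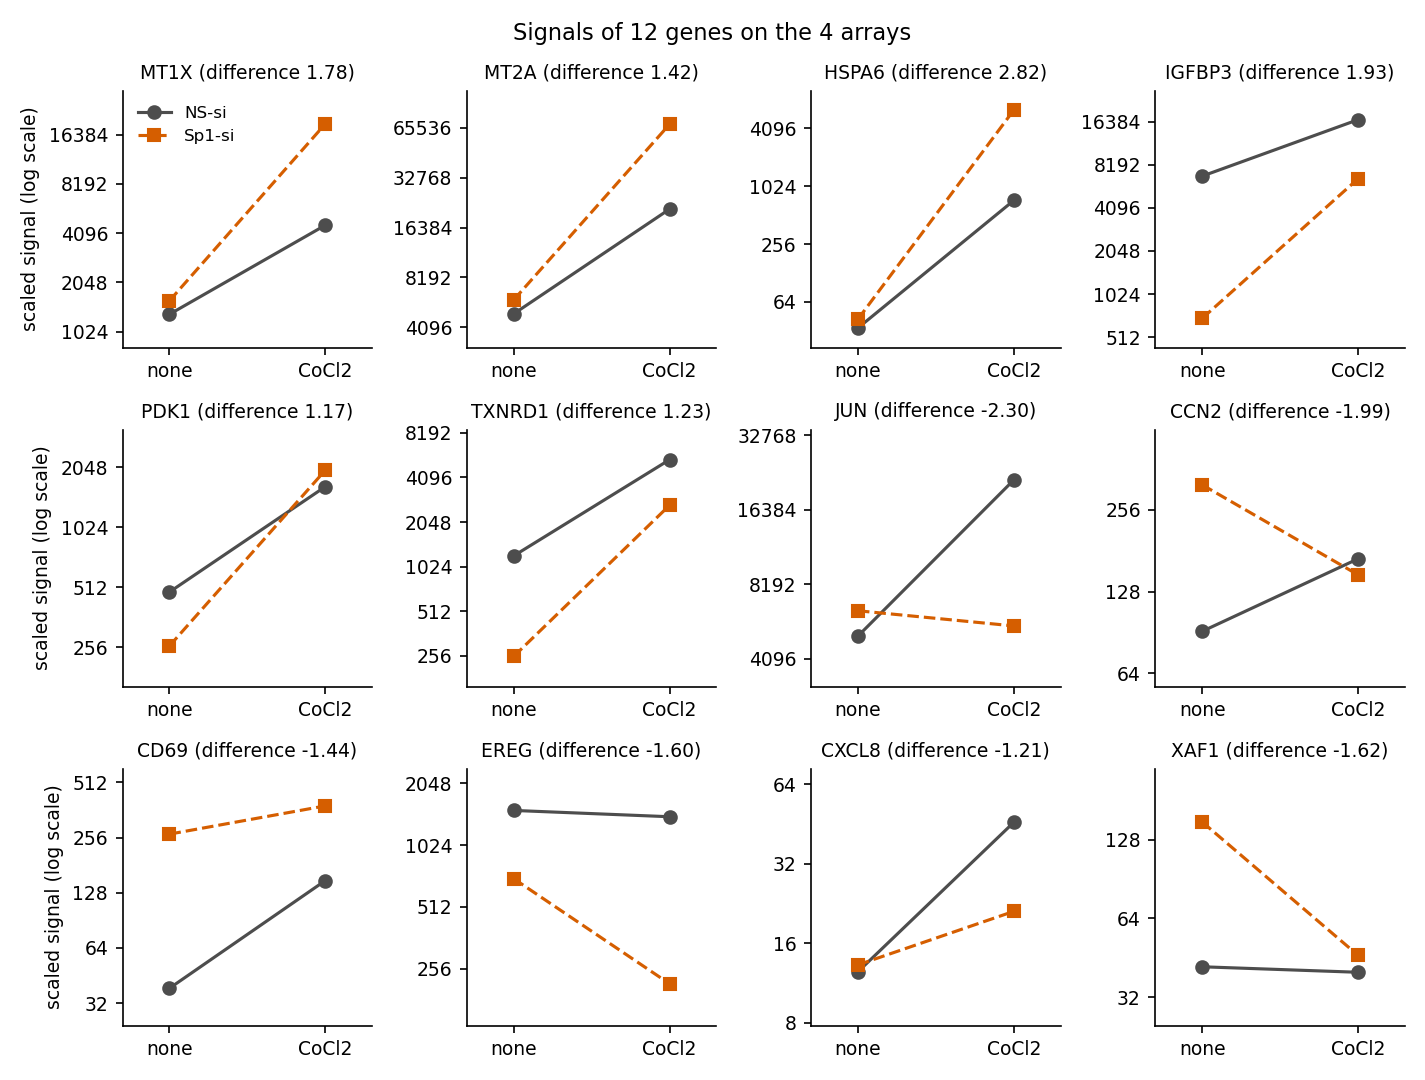
Scaled signal (log axis, a different range in each panel) of 12 genes without and with CoCl2, in NS-si cells (circles, solid line) and Sp1-si cells (squares, dashed line), 1 array per point and no error bar. MT1X, MT2A and HSPA6 diverge from like starting levels, and JUN is high on the NS-si → CoCl2 array alone. IGFBP3, PDK1, TXNRD1, CCN2, CD69, EREG and XAF1 differ before CoCl2.

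IGFBP3, which binds insulin-like growth factors and is a HIF target, led the genes with agreeing probes at the positive end. It had 6819 without and 16894 with CoCl2 in NS-si cells, against 692 and 6537 in Sp1-si cells. Both Sp1-si arrays were below the NS-si array of the same treatment, so that the larger ratio (3.24 against 1.31) started from a lower level, and the probes gave 2.10 (10 spots, SE 0.025) and 1.76. TICRR, a regulator of replication origin firing, had 417 without and 1899.6 with CoCl2 in NS-si cells, against 271 and 4428 in Sp1-si cells, with ratios of 2.19 and 4.03. Here the Sp1-si cells were lower before and higher after CoCl2. TET1, which oxidises methylcytosine, had ratios of -0.89 and 0.78, the kinase MARK1 -0.61 and 1.07, ASB13, a SOCS box protein, 0.06 and 1.42, and CEMIP, which degrades hyaluronan, -1.27 and 0.07. MARK1 started lower in Sp1-si cells, with signals of 99.8 without and 65.4 with CoCl2 in NS-si cells, against 29.5 and 62.0 in Sp1-si cells. With normexp, the differences of MARK1 and CEMIP were 0.50 and 0.98, against 1.68 and 1.34. Among genes with 1 probe and a mean signal of at least 50, HSPA6 stood first at the positive end. After it came the protein kinase A subunit PRKAR2B (2.09), HSD3B7 of bile acid synthesis (1.89), the peptide transporter SLC15A3 (1.89) and SOCS2 (1.87). The repressor E2F7 (1.85), the ubiquitin ligase RNF125 (1.84), the sphingosine 1-phosphate receptor S1PR1 (1.74), the polarity gene PRICKLE2 (1.63) and MT1E followed. With normexp, PRKAR2B, HSD3B7, SLC15A3, RNF125 and PRICKLE2 were no longer past 1, with 0.89, 0.84, 0.49, 0.43 and 0.91, and S1PR1 had 1.02. SOCS2 had 415 without and 266 with CoCl2 in NS-si cells, against 462 and 1086 in Sp1-si cells, opposite in direction to its relative SOCS1.

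Of 35 members of the list of HIF targets outside glycolysis, 25 were raised at least 2-fold after NS-si, 24 after Sp1-si and 23 after both, with median ratios of 1.70 and 1.595 and a median difference of 0.09. VEGFA, the main angiogenic growth factor, had ratios of 2.18 and 2.30, although its level was lower on both Sp1-si arrays (554 without and 2515 with CoCl2 in NS-si cells, against 168 and 823 in Sp1-si cells). Differences past 1 were those of IGFBP3 and ANKRD37 (1.23), and the lowest was that of the carbonic anhydrase CA12 (-0.62). Of 19 glycolytic HIF targets, 8 were raised at least 2-fold after NS-si, 9 after Sp1-si and 6 after both. Their ratios were higher in Sp1-si cells for 14 members, with a median difference of 0.48. PDK1, a kinase that inhibits pyruvate dehydrogenase, had 484 without and 1635 with CoCl2 in NS-si cells, against 260 and 1977 in Sp1-si cells, so that its ratios differed by 1.17 (0.99 with normexp). LDHA, which makes lactate, had a difference of 0.84 over 3 probes and GAPDH 0.34. The 5 members below 0 included the aldolase ALDOA (-0.97), the lowest, and the glucose transporter SLC2A1 (-0.92). ALDOA had 31429 without and 50096 with CoCl2 in NS-si cells, against 30167 and 24542 in Sp1-si cells, and was lowest on the Sp1-si → CoCl2 array.

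NRF2 targets, which serve antioxidant defence, had differences above 0 in 19 of 25 members, with a median of 0.23. TXNRD1, a thioredoxin reductase, had 1210 without and 5399 with CoCl2 in NS-si cells, against 253 and 2658 in Sp1-si cells. NQO1, a quinone reductase, had 2205 without and 2872 with CoCl2 in NS-si cells, against 160 and 487 in Sp1-si cells. Both had a difference of 1.23 (0.86 for NQO1 with normexp), and both were lower on each Sp1-si array than on the NS-si array of the same treatment. GCLM and GCLC, the subunits of the enzyme that starts glutathione synthesis, followed with 0.99 and 0.92. HMOX1, heme oxygenase, went the other way with -0.99 (SE 0.039 between 10 spots), from ratios of 3.73 and 2.75. Its signals were 18216 without and 242321 with CoCl2 in NS-si cells, against 29140 and 195444 in Sp1-si cells. HMOX1 was thus higher before CoCl2 and lower with it in Sp1-si cells.

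**Figure D4:**
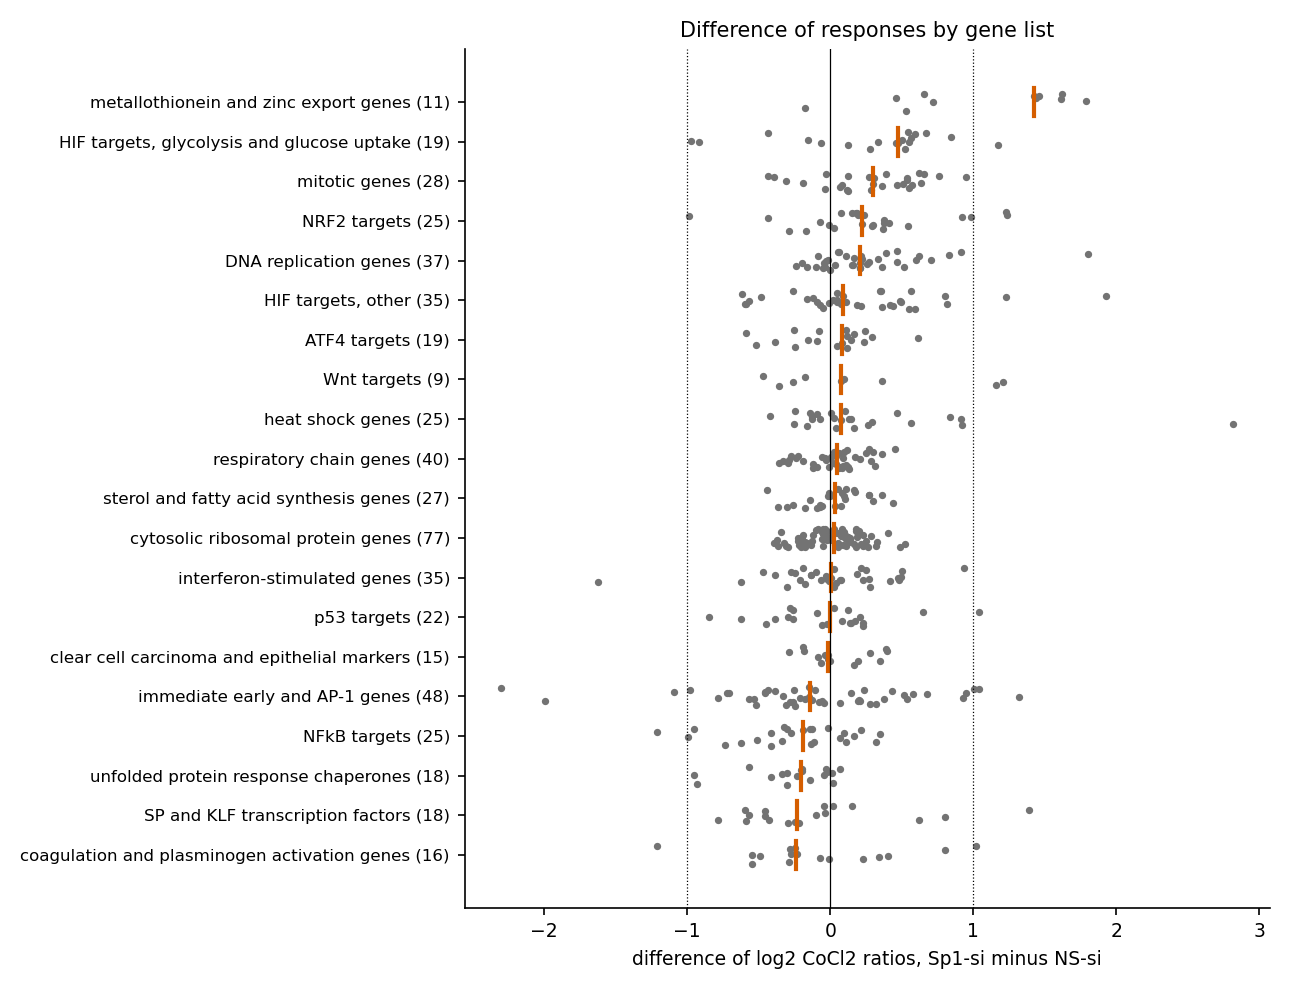
Difference of log2 CoCl2 ratios, Sp1-si minus NS-si (x axis), for the members of 20 gene lists, with the number of measured members in parentheses. Grey points are genes, jittered vertically, orange bars are list medians and dotted lines mark differences of -1 and 1. The metallothionein median of 1.42 stands to the right of all others, and the 5 lists with medians below -0.1 at the bottom have medians between 0.21 and 0.31 without scaling, where the median of all genes is 0.47.

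Besides the immediate early genes, the lists with the lowest medians were the chaperones of the unfolded protein response, NFkB targets, SP and KLF factors, and coagulation and plasminogen activation genes. Of 18 endoplasmic reticulum chaperones and cofactors, 15 had differences below 0 and 0 were past 1, with a median of -0.20, and of 0.25 without scaling, under the 0.47 of all genes. DNAJC3 (-0.95) and HERPUD1 (-0.93), both of the unfolded protein response, were the lowest, whereas HSPA5, its main chaperone, had -0.30. Of 25 NFkB targets, 18 were below 0, with a median of -0.19, and of 0.26 without scaling, and CXCL8, the chemokine IL8, was past 1 with -1.21. Its signals of 12.5 without and 45.9 with CoCl2 in NS-si cells, against 13.2 and 21.1 in Sp1-si cells, were among the dimmest, and normexp background correction gave -0.60. The antiapoptotic gene BIRC3 had ratios of 1.41 and 0.42, and REL, an NFkB subunit, 0.27 and -0.69. The 16 coagulation and plasminogen activation genes had a median of -0.24, and of 0.21 without scaling. F7, coagulation factor VII, was dim as well, with 13.8 and 23.0 against 14.4 and 10.4 (without and with CoCl2, NS-si against Sp1-si) and a difference of -1.21 (-0.52 with normexp), while F2R, the thrombin receptor, had 1.02 (0.64 with normexp) from ratios of -1.01 and 0.01. Among the ligands of the TGFB family, TGFB2 had -1.30 (-0.67 with normexp) at signals from 16.3 to 44.3, TGFB1 0.46 and TGFB3 0.49.

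SP and KLF factors, which bind like sequences, had a median of -0.23, and 0.22 without scaling, with 13 of 18 members below 0. SP8 was past 1 with 1.39 (0.45 with normexp), from ratios of -2.21 (NS-si) and -0.82 (Sp1-si). SP3 and SP4, which bind the same GC boxes as Sp1, had -0.59 and -0.78, whereas SP2 had 0.80. SP4 rests on 1 spot and was among the dimmest members, with signals from 8.61 to 16.1. Of 9 Wnt targets, DKK1 and ASCL2 were past 1, against 2.74% of all genes. ASCL2, a transcription factor, had signals between 23.1 and 55.2 and a difference of 1.16, which was 0.18 with normexp, and another of its probes, well above background on 2 arrays, gave -0.82. DKK1, a secreted Wnt inhibitor, had 38982 without and 7685 with CoCl2 in NS-si cells, against 91474 and 41629 in Sp1-si cells. It was lowered by CoCl2 in both, and less so in Sp1-si cells, by a difference of 1.21.

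Genes of the cell cycle had slightly higher ratios in Sp1-si cells. DNA replication genes had a median ratio of -0.40 (NS-si) and -0.13 (Sp1-si), and 26 of 37 had a difference above 0, and mitotic genes had -0.59 and -0.25, with 22 of 28 above 0. Both lists started from lower levels in Sp1-si cells. Their median log2 ratio of Sp1-si over NS-si was -0.41 without and -0.05 with CoCl2 for DNA replication genes. For mitotic genes it was -1.12 and -0.67. CCNE2, a cyclin of the G1/S transition, was past 1 with 1.80, but its signals lay between 10.8 and 30.3 and normexp gave 0.10. TYMS (0.91), MCM6 (0.83) and PRC1 (0.95), a thymidylate synthase, a helicase subunit and a cytokinesis protein, were next. Cytosolic ribosomal protein genes (77 members, from -0.39 to 0.52) and respiratory chain genes (40 members, from -0.36 to 0.45) had medians of 0.02 and 0.05 with 0 members past 1. ATF4 targets (19 members), genes of sterol and fatty acid synthesis (27) and chaperones of the unfolded protein response likewise had none past 1, and p53 targets only BTG2 of 22.

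RefSeq promoters were available for 10933 members (79.7%), taken from 250 bases before to 50 after the start. A GC box was found in 66.3% of them, in 53.9% of 193 promoters of genes with a difference of -1 or lower and in 65.2% of 89 with 1 or higher. Among genes raised at least 2-fold in NS-si cells with a difference of -1 or lower, 18 of 37 promoters (48.6%) held one. Among those raised in Sp1-si cells with a difference of 1 or higher, it was 29 of 35 (82.9%). Promoters were at hand for only 75.1% of the genes at -1 or lower and 74.8% of those at 1 or higher, under the 80% that a comparison of GC content or other promoter properties would need, so such a comparison is void and the shares are descriptions of the promoters at hand. The HRE core ACGTG was present in 25.4% of the promoters of all members, in 21.8% of those at -1 or lower and in 16.9% of those at 1 or higher. TGANTCA, the AP-1 site, was found in 4.85%, 6.22% and 5.62%, and TGACGTCA, the cyclic AMP response element, in 2.92%, 0.518% and 3.37%, in the same order. The cores of the metal response element and of the heat shock element were added after the values were seen. The former was found in 37.3%, 35.8% and 49.4%, and the latter in 4.70%, 4.15% and 3.37%, again in this order. Over all 27305 promoters of the table, the shares were 44.6% for the GC box, 21.6% for the HRE core, 7.76% for the AP-1 site and 1.98% for the cyclic AMP response element. They were 29.3% for the metal response element core and 6.87% for the heat shock element core.

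**Figure D5:**
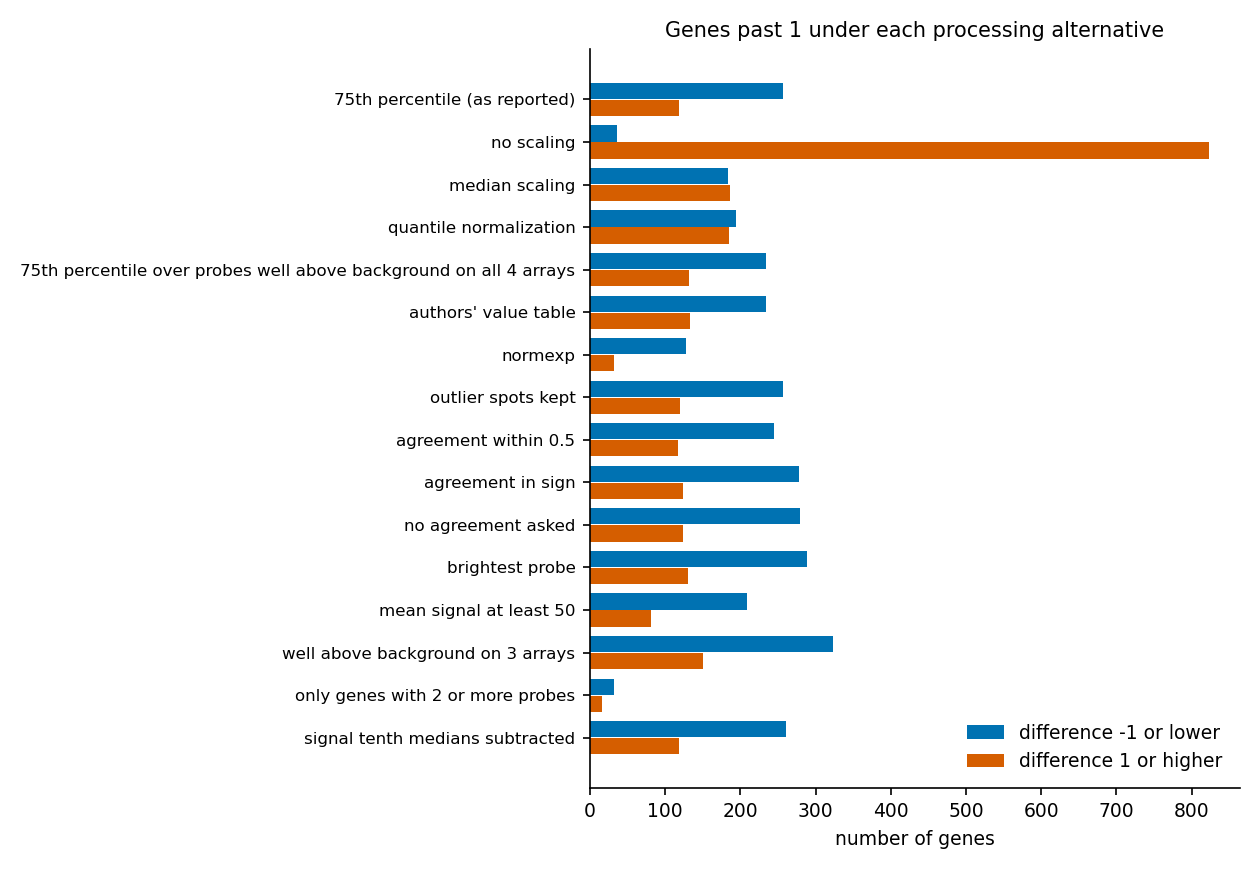
Number of genes (x axis, from 0) with a difference of -1 or lower (blue) and of 1 or higher (orange) under each way of processing. The 257 and 119 genes of the first pair become 184 and 186 with median scaling, 36 and 823 without scaling and 127 and 32 with normexp.

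The calls depended on signal to a degree. With members ranked by mean signal in 10 bins of 1372 genes, the dimmest bin held 59 genes at -1 or lower and 35 at 1 or higher, bin 6 held 13 and 12, and the brightest bin 32 and 2. Over all members, 1.87% were at -1 or lower and 0.867% at 1 or higher. The 32 genes of the brightest bin, described after their values were seen, had a median ratio of 0.66 (NS-si) and -0.53 (Sp1-si). In 22 of them the NS-si ratio lay between 0.4 and 1 and the Sp1-si ratio between -1 and -0.3. Of all 2460 probes with a symbol and signals as in this bin, 63 (2.56%) lay in these ranges. Being picked for a difference of -1 or lower itself favours such ratios. Among the 32 were genes known for expression in few tissues, such as the muscle cytochrome oxidase subunit COX6A2 (-1.38), the receptors UTS2R (-1.36) and GALR3 (-1.13), the keratin-associated KRTAP4-1 (-1.15) and the developmental factors SOX3 (-1.17), LBX1 (-1.07), PHOX2A (-1.04) and HES7 (-1.03). Each of these values rests on 1 probe, and SOX3 and KRTAP4-1 have another probe that was well above background on 0 arrays, with signals from 1.80 to 2.78 and from 1.44 to 1.90. What makes these probes bright in this cell line was not tested.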

How the data were processed

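Total RNA was labelled with Cy3 and hybridised to Agilent 4x44K arrays. The deposited intensities are processed signals of Agilent Feature Extraction 10.5.1.1, which per the file headers had subtracted background and removed spatial trends, with no normalization between arrays. The authors' value table holds the same intensities multiplied by 1 constant per array.

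Here, the 75th percentile of each array was subtracted from the log2 signals of non-control spots, outlier spots were dropped and spots of a probe averaged. Probes needed 50% or more of the remaining spots well above background. Symbols were assigned by RefSeq accession (28463 of 29877 spots). Printed signals are set to the mean 75th percentile. No test was run, and the procedure was checked on simulated data. Named genes are the 10 lowest and highest differences among members with several probes and with 1 probe (mean signal of at least 50), genes of opposite direction, the extremes and calls of each list, and genes the study names. Other genes were named after their values were seen. Members and lists were chosen with earlier results of these data known. Alternatives were other scalings, normexp on median signals, filters and thresholds. Python 3.11.15, numpy 2.4.6, pandas 2.3.3, matplotlib 3.10.9, R 4.3.3 and limma 3.58.1 were used.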

Additional observations from a re-analysis of the deposited data

Results flagged for a closer look

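LRRC2, a leucine-rich repeat gene, and REXO1, a putative exonuclease gene, had log2 CoCl2 ratios of at least 1 in size and of opposite sign in both kinds of cells. LRRC2 had ratios of 1.12 (NS-si) and -1.23 (Sp1-si), a difference of -2.35, with signals of 53.6 without and 116 with CoCl2 in NS-si cells, against 107 and 45.6 in Sp1-si cells. REXO1 had -1.58 and 1.73, a difference of 3.32, with signals of 63.8 and 21.3 against 16.6 and 55.2 in the same order. Both values rest on 1 probe with 1 spot, and the median SD of the difference between spots was 0.24 at such signals. Another LRRC2 probe was well above background on 0 arrays, with signals from 1.84 to 2.43 and a difference of 0.32. With normexp, the differences were -1.37 and 0.80. With 1 array per condition, the difference was not tested for either gene.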

How the results depend on the processing

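Of the 58 named genes with a difference past 1, 31 stayed past 1 under every alternative that gave them a value, and all 58 kept their sign. Against 257 genes at -1 or lower, 119 at 1 or higher, 50 raised in NS-si cells with a difference of -1 or lower, 45 raised in Sp1-si cells with 1 or higher and 2 of opposite direction, no scaling gave 36, 823, 9, 206 and 5, normexp (on median spot signals, since the files used hold no mean signals) 127, 32, 19, 21 and 0, genes with 2 or more probes alone 32, 16, 4, 12 and 0, and a threshold of 1.5-fold 922, 708, 348, 266 and 36. Genes at 1 or higher numbered 186 with median scaling (68 of them raised in Sp1-si cells) and 185 with quantile normalization. Genes of opposite direction numbered 1 at mean signals of at least 50 and 5 where 3 arrays above background sufficed. Subtracting the median of each signal bin, chosen after seeing the data, left 260 and 119 genes.

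List medians minus that of all genes moved as follows. With normexp, they were 0.167 for heat shock, 1.13 for metallothionein, -0.0988 for Wnt, 0.125 for ribosomal and 0.133 for respiratory chain genes and 0.0870 for CCC markers. With agreement in sign, they were 0.265 for other HIF targets, -0.316 for chaperones of the unfolded protein response and -0.1938 for Wnt targets. Without agreement, metallothioneins had 1.07 and Wnt targets -0.179, and with the brightest probe glycolytic HIF targets had 0.372. At signals of at least 50, Wnt targets had -0.07533. With 2 or more probes, metallothioneins had 1.51, ATF4 targets -0.107 and SP and KLF factors -0.465. The causes were not tested. No paired analysis was possible because each condition has 1 array. The median SD between spots was 0.24 below a signal of 104.8 and 0.087 above 7881.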

Other observations

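Histone genes, looked up after their values were seen, differed by family. Of 12 genes of histone H4, 5 had a difference of -1 or lower, against 1.87% of all genes. H4C3 had signals of 19521 without and 14644 with CoCl2 in NS-si cells, against 8259.8 and 2361 in Sp1-si cells, and H4C2 3098 and 2237 against 1329.5 and 380.2 in the same order. H4C3, H4C2, H4C13 and H4C4 were lowest on the Sp1-si → CoCl2 array, with differences of -1.39, -1.34, -1.26 and -1.001, and H4C1, which was dim, had -1.27. The other 7 genes of this family lay between -0.28 (H4C8) and 0.36 (H4C12). By contrast, all 16 measured H2B genes had differences between 0.29 and 0.63, whereas 14 H2A genes lay between -0.29 and 0.18, and 12 H3 genes between -0.45 and 0.11. Probes of 1 family can read each other's transcripts, so these genes are not independent of each other.

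Probes without a gene symbol are no members, but 9308 of them were well above background on all 4 arrays. Their difference was -1 or lower in 747 cases (8.03%) and 1 or higher in 104 (1.12%), against 3.50% and 1.004% of the 20926 probes with a symbol, before any condition on agreement. Probes named only by a GenBank accession outside RefSeq had 9.16% at -1 or lower and those with Ensembl transcripts 5.38%. For the 747 probes, the median ratio was 0.58 (NS-si) and -0.76 (Sp1-si). It was 0.33 and -0.95 for the 733 probes with a symbol at -1 or lower. The median signal of the 747 probes was 143, against 174 for all probes without a symbol. Probes with a symbol were brighter, with a median of 563. What the probes without a symbol detect was not tested.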
